A study of Mus musculus with 9 samples.

Results

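The genes of the vacuolar proton pump (V-ATPase) and of the nutrient sensing machinery around mTORC1 were followed in D2.0R mouse mammary tumour cells grown on 2 matrices. The group held 40 genes, chosen by their symbols, and each of the 40 was found among the 23309 gene symbols of the files. Of these, 19 encode the pump, with 9 subunits of the membrane sector V0, 8 of the cytosolic sector V1 and 2 accessory proteins. The other 21 are nutrient sensing genes, namely the Rag GTPases, Ragulator, folliculin and its partners, the mTOR complexes, TSC and Rheb, and GATOR1.

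RNA from D2.0R cells, a line that the study uses as a model of tumour cell dormancy, was sequenced in 9 libraries. On basement membrane extract (BME) the cells are described as dormant, and they were collected at day 1 and at day 5. On BME with type I collagen added (BME + COL1) they are described as proliferating, and they were collected at day 5. Each of the 3 groups, BME day 1, BME day 5 and BME + COL1 day 5, had 3 biological replicates, a, b and c. All groups shared the cell line, a low-glucose medium with little serum, and cell recovery from the matrix in cold EDTA, and no group received a drug. The data are from 1 cell line, and no BME + COL1 library at day 1 was analysed here.

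The V-ATPase hydrolyses ATP in its V1 sector and drives protons through its V0 sector into the lysosome lumen, which keeps lysosomal enzymes active. When amino acids are plentiful, the pump and Ragulator act on the Rag GTPases, which bring mTORC1 to the lysosome surface, where Rheb switches its kinase on. GATOR1 and TSC restrain this step as GTPase activating complexes for RagA or RagB and for Rheb, and folliculin with its FNIP partners is the activating complex for RagC or RagD.

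Levels are in FPKM, a read count scaled by the length of the transcript and by the mapped fragments of the library, summed over the transcripts of a gene. Because the scale includes length, levels of different genes can be set side by side. Changes are log2 differences of FPKM + 0.1 with their standard error (SE), and p-values are from limma over the 10497 genes whose mean reached 1 FPKM, adjusted by Benjamini and Hochberg. A change with an adjusted p under 0.05 was counted as higher or lower. The filter kept 18 pump genes and 19 nutrient sensing genes, and left out Atp6v0d2, Rragb and Rragd, which are described below by their levels. The p-values measure the spread between these cultures. In bulk RNA a smaller share of cells that express a gene and less of its RNA in each cell cannot be told apart.

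The libraries held between 7.21 and 9.37 gigabases of aligned sequence. A confidence interval is given with the FPKM of each transcript. For the most abundant transcript of the 37 tested genes it spanned a median of ± 3.81% of that transcript's level. By gene, the medians over the libraries ran from 1.39% to 19.6%, widest for Deptor. BME day 5 replicate b had the lowest FPKM total, and its median gene lay 0.27 log2 units below the mean of the 9 libraries. Of FPKM in BME day 5 replicate a, 7.30% belonged to transcripts under 300 nt, against 0.497% to 2.18% in the others. FPKM totals ran from 287611 in that replicate b to 423289 on BME + COL1, and the median of all genes tested differed by -0.18 between BME day 5 and BME + COL1 day 5 in FPKM and by 0.16 when each library was rescaled to the same total (TPM). Of the genes called in this comparison, 40.1% were higher on BME day 5 in FPKM and 59.4% in TPM. The keratins Krt8 and Krt18 of luminal epithelium were abundant in all libraries, while Krt5 and Krt19 were near 0. Krt14 had group means of 23.3, 16.2 and 17.0 FPKM in BME day 1, BME day 5 and BME + COL1 day 5. In the same order, Epcam had means of 1.29, 0.730 and 0.821 FPKM and Cdh1 of 34.3, 16.4 and 31.1 FPKM. All 12 macrophage and osteoclast markers stayed under 1 FPKM (highest 0.517, with Emr1 at 0 throughout). They summed to 0.282 to 0.635 FPKM in BME day 1 and 0.285 to 0.362 FPKM in BME day 5. On BME + COL1 day 5 their sum was 0.131 to 0.186 FPKM. Not all of them went with the sum between the matrices. Ptprc went the other way, at 0.0107 to 0.0191 FPKM in BME day 5 and 0.0447 to 0.0763 FPKM on BME + COL1 day 5. By group mean Itgam and Ocstamp did so too, with overlapping groups. Fibroblast markers summed to 20.1 to 28.0 FPKM in BME day 1, 26.5 to 36.1 in BME day 5 and 4.56 to 4.73 on BME + COL1 day 5, mostly from Pdgfra and Pdgfrb, with 5 of the 8 under 1 FPKM in every library. The 7 epithelial markers summed to 1459 to 1619, 784 to 1167 and 2353 to 2460.5 FPKM in the same order. Between the matrices at day 5 the fibroblast sum was higher on BME, as the pump genes were. Of the rare fibroblast markers, Col1a2 and Col3a1 went the other way. Their means were 0.0350 and 0.0204 FPKM in BME day 5 and 0.105 and 0.0574 FPKM on BME + COL1 day 5. The part of these markers in the results was not tested.

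The comparison of BME with BME + COL1 at day 5 asks how the genes differ between cells held dormant and cells that proliferate. The added collagen and the growth state differ together between these groups and cannot be told apart. The pump genes stood higher on BME: 15 of the 18 tested were higher, none was lower, and their median change was 0.95, which is 1.94-fold. Across all genes tested 30.3% were higher, 45.3% were lower and the median change was -0.18. All 8 V1 genes were higher (0.46 to 1.59), as were both accessory genes (1.06 and 1.81) and 5 of 8 V0 genes. Here and below, a rise or fall between the matrices is a difference in level at day 5, not a change over time. A log2 change above 1 was reached by 9 of the 18 pump genes, against 11.1% of all genes. Summed over the class, pump genes came to 1665 to 1765 FPKM in BME day 5 and 944 to 967 FPKM on BME + COL1 day 5, so the groups did not overlap.

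**Figure D1:**
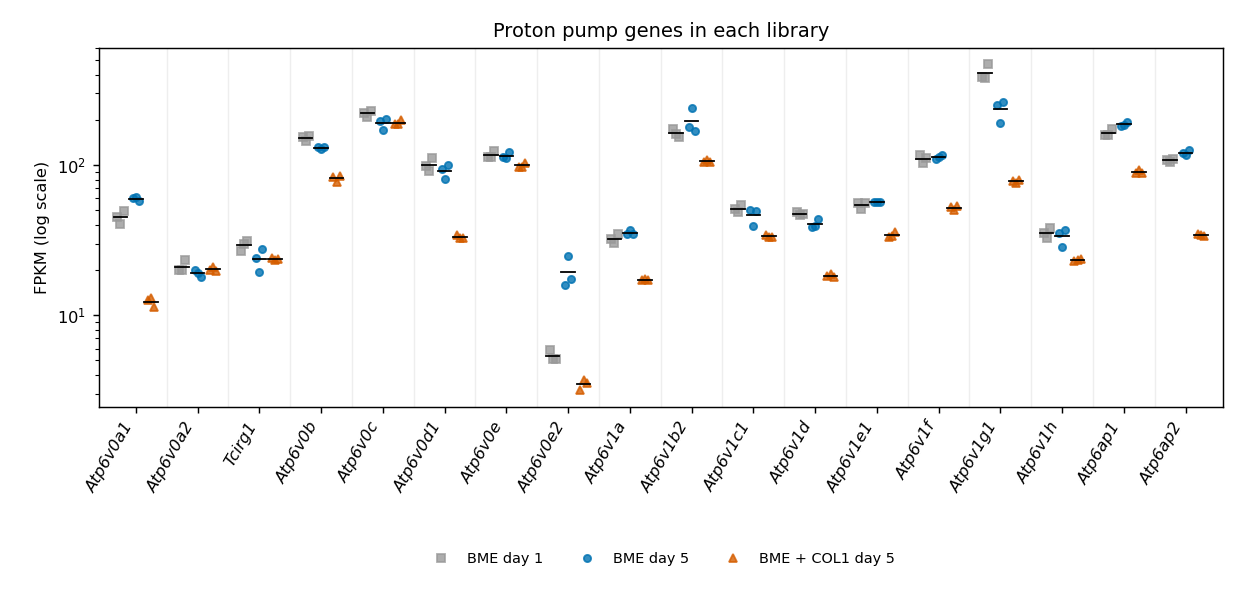
FPKM (log scale) of the 18 tested pump genes in each of the 9 libraries. Points are libraries, black bars are group means, and BME + COL1 day 5 (triangles) lies apart from both BME groups for genes such as Atp6v0a1, Atp6v0d1, Atp6v1g1 and Atp6ap2, but not for Atp6v0a2, Tcirg1 or Atp6v0c. Atp6v0d2, at 0 in some libraries, is not drawn.

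In the V0 sector, Atp6v0e2 encodes a form of the small e subunit and lies at chr6:48487568-48491799 (mm9). Its level was 15.9, 24.8 and 17.3 FPKM in BME day 5 replicates a, b and c, and 3.16, 3.71 and 3.51 FPKM on BME + COL1 day 5. Every BME day 5 library was above every BME + COL1 library, and the change was 2.43 ± 0.15 (SE, adjusted p = 1.1e-06), a 5.37-fold difference. Atp6v0a1 (chr11:100870766-100925031), the a1 form of the subunit that forms the proton channels with the c ring, was at 60.5, 61.2 and 57.6 FPKM in BME day 5 and at 12.7, 13.0 and 11.4 FPKM on BME + COL1 day 5. The groups were far apart, with a change of 2.27 ± 0.09 (SE, adjusted p = 1.21e-07). Atp6v0d1 (chr8:108048370-108089940), the d subunit that joins the rotor of V1 to the c ring, stood at 94.6, 80.4 and 99.7 FPKM in BME day 5 and 34.1, 32.9 and 32.4 FPKM on BME + COL1 day 5, a change of 1.46 (adjusted p = 2.25e-06). Its lowest BME library was replicate b, still over the highest BME + COL1 library. Atp6v0b, a proteolipid of the c ring, rose by 0.68 (adjusted p = 3.13e-05, limma), from a mean of 81.5 ± 3.82 to 131 ± 2.52 FPKM (SD, n = 3).

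Atp6v0e (chr17:26813341-26836591), the main e subunit gene, showed the smallest rise that passed. It was at 113, 112 and 122 FPKM in BME day 5 and 96.9, 97.7 and 104 FPKM on BME + COL1 day 5, and the change was 0.22 (adjusted p = 0.0285). The 3 libraries on each side did not overlap, but the call was lost without BME day 5 replicate c (adjusted p = 0.0793), without BME + COL1 replicate a (0.0945) or without BME + COL1 replicate b (0.078). The remaining V0 genes did not pass. Atp6v0c, the proteolipid that makes up most of the c ring, had 197, 172 and 201 FPKM in BME day 5 and 188, 188 and 201 FPKM on BME + COL1 day 5, and the groups overlapped. Its change was -0.02 (adjusted p = 0.861) in FPKM and 0.33 (adjusted p = 0.000553) in TPM, in which Atp6v0a2 (0.26) and Tcirg1 (0.33) also passed, so that 18 of 18 pump genes were higher against 46.3% of all genes.

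Each V1 gene was higher on BME day 5. Atp6v1g1 (chr4:63205799-63211735), a subunit of the peripheral stalk and by group mean the most abundant pump gene on BME, was at 252, 192 and 264 FPKM in BME day 5 and at 78.2, 75.9 and 79.3 FPKM on BME + COL1 day 5. The change was 1.59 ± 0.13 (SE, adjusted p = 6.03e-06), and the BME libraries varied far more among themselves than the BME + COL1 libraries. The catalytic subunit A, Atp6v1a, rose by 1.04, from 17.2 ± 0.158 to 35.5 ± 1.12 FPKM (SD, n = 3). Its partner in the hexamer, Atp6v1b2, rose by 0.87, and its BME day 5 values were 181, 241 and 167 FPKM, replicate b being the highest. Among the rotor subunits, Atp6v1d rose by 1.14 and Atp6v1f by 1.12. The changes were 0.73 for Atp6v1e1, another stalk subunit, 0.51 for Atp6v1h and 0.46 for Atp6v1c1. The highest adjusted p of the 8 was 0.00233, for Atp6v1c1 (limma).

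Of the accessory proteins, which help assemble the pump, Atp6ap2 (chrX:12164885-12194177), known as the prorenin receptor, was at 120.2, 116 and 127 FPKM in BME day 5. On BME + COL1 day 5 it was at 35.0, 34.2 and 33.8 FPKM. Both groups were tight and far apart (change 1.81 ± 0.07 SE, adjusted p = 1.02e-07). Atp6ap1 rose by 1.06 (adjusted p = 2.18e-06, limma), from 90.0 ± 2.03 to 187 ± 5.15 FPKM (SD, n = 3).

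As a class, nutrient sensing genes differed less in size between the matrices. Of 19 tested, 13 were higher on BME day 5 and 2 were lower, beside the 30.3% and 45.3% of all genes, and the median change was 0.32, or 1.25-fold. A log2 change above 1 was found for Deptor, Fnip1 and Fnip2 (3 of 19). The parts of the classes, each of few genes, overlapped in median change. For the pump the medians were 0.45 (V0), 0.95 (V1) and 1.44 (accessory). For nutrient sensing they were 1.03 (folliculin and its partners), 0.41 (Ragulator) and 0.32 (TSC and Rheb). The mTOR complexes and GATOR1 were both at 0.16, and the Rag GTPases at 0.08. Summed over the class, the genes came to 405 to 437 FPKM in BME day 5 and to 371 to 375 FPKM on BME + COL1 day 5. In TPM, 16 were higher and none was lower, where 46.3% and 31.7% of all genes were.

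**Figure D2:**
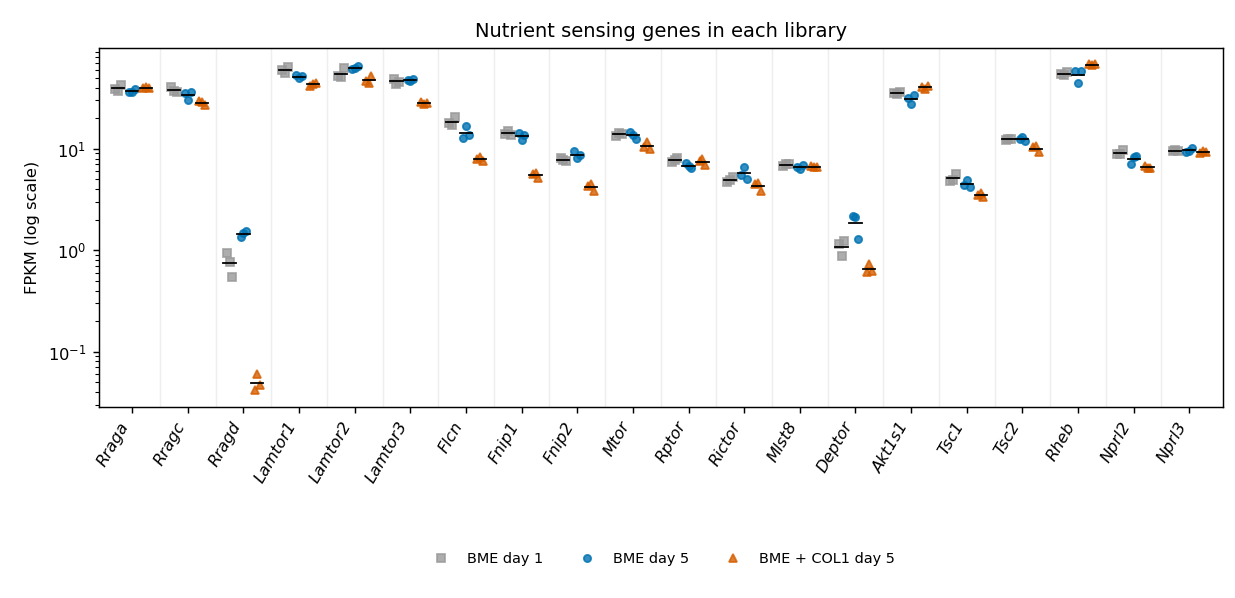
FPKM (log scale) of 20 nutrient sensing genes in each of the 9 libraries, with black bars at group means. Most genes lie close together in the 3 groups, while Flcn, Fnip1, Fnip2, Lamtor3 and Deptor are lower on BME + COL1 day 5 (triangles), and Rragd is near 0.05 FPKM there. Rragb, listed at 0 in all libraries, is not drawn.

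The genes of folliculin and its partners were higher on BME day 5. Fnip1 (chr11:54251681-54331743), a partner of folliculin in that complex, was at 14.4, 12.3 and 13.7 FPKM in BME day 5 and 5.61, 5.78 and 5.15 FPKM on BME + COL1 day 5, a change of 1.27 ± 0.08 (SE, adjusted p = 1.26e-06). Fnip2 (chr3:79259893-79371601) was at 9.52, 8.13 and 8.68 FPKM and at 4.33, 4.50 and 3.87 FPKM in the same groups, a change of 1.03 (adjusted p = 4.77e-06). Neither gene had overlapping groups. Flcn itself (chr11:59604910-59623541) was at 12.7, 16.6 and 13.8 FPKM against 7.99, 8.30 and 7.63 FPKM, and its change was 0.83 (adjusted p = 8.85e-05, limma). With the most abundant transcript of each gene in place of the sum, the Flcn change was 0.27 and did not pass (adjusted p = 0.0506).

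All 3 Ragulator genes tested in the group, which encode the scaffold that anchors the Rag GTPases to the lysosome, were higher. Lamtor3 rose by 0.75 (adjusted p = 1.43e-05), Lamtor2 by 0.41 (adjusted p = 0.0041) and Lamtor1 by 0.26 (adjusted p = 0.0121). The Lamtor1 call was lost without BME + COL1 replicate a (adjusted p = 0.0504). Rragc (chr4:123594676-123614240), which encodes RagC, was at 35.6, 30.6 and 36.6 FPKM in BME day 5 and 29.5, 28.9 and 26.8 FPKM on BME + COL1 day 5. These groups lay close without overlap, and the change of 0.27 (adjusted p = 0.0223) was lost without BME day 5 replicate a (0.0588) or c (0.0739) or BME + COL1 replicate c (0.0789). Rraga (chr4:86221577-86223187), which encodes RagA, was at 36.5, 36.0 and 39.1 FPKM and at 39.4, 40.7 and 40.2 FPKM. It did not pass in FPKM (-0.11, adjusted p = 0.209), and in TPM its sign turned (0.24, adjusted p = 0.0204, limma).

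The mTOR complexes were mixed. Deptor (chr15:54944038-55085757), an inhibitor that binds mTOR, was the rarest tested gene of the group at 2.19, 2.14 and 1.29 FPKM in BME day 5 and 0.611, 0.731 and 0.627 FPKM on BME + COL1 day 5. It rose by 1.35 ± 0.22 (SE, adjusted p = 0.000413), with BME day 5 replicate c well below replicates a and b, and the change was 0.78 with a pseudocount of 1 FPKM. The kinase gene Mtor rose by 0.34 (adjusted p = 0.00367), from 10.7 ± 0.845 to 13.6 ± 0.951 FPKM (SD, n = 3). Rictor, the scaffold of mTORC2, rose by 0.40 (adjusted p = 0.0109), a call lost without BME + COL1 replicate c (0.0506). Rptor, the scaffold of mTORC1, and Mlst8, a subunit of both complexes, had overlapping groups, with changes of -0.13 and -0.01, neither of which passed. In TPM the change of Mlst8 was 0.33 (adjusted p = 0.00275) and that of Rptor was 0.22 (adjusted p = 0.0535, limma).

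Akt1s1 (chr7:52104594-52110791), which encodes the mTORC1 inhibitor PRAS40, was at 31.7, 27.5 and 33.8 FPKM in BME day 5 and at 40.6, 38.6 and 41.8 FPKM on BME + COL1 day 5. The groups did not overlap, and the change was -0.38 (adjusted p = 0.00304). Rheb (chr5:24308641-24348179), the GTPase that activates mTORC1, was at 58.9, 44.2 and 58.1 FPKM and at 68.4, 66.5 and 68.4 FPKM, a change of -0.35 (adjusted p = 0.0163), or -0.21 without BME day 5 replicate b. Both falls depended on the scale: in TPM the change of Akt1s1 was -0.04 (adjusted p = 0.572) and the Rheb change had an adjusted p of 0.991 (limma).

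The TSC and GATOR1 genes, which restrain the pathway, had small changes. Tsc1 rose by 0.36 (adjusted p = 0.00524) and Tsc2 by 0.32 (adjusted p = 0.00309), which together form the complex acting on Rheb. Of the GATOR1 genes, Nprl2 rose by 0.27 (adjusted p = 0.0147), a call lost without BME day 5 replicate c (0.0585). Nprl3 had overlapping groups and a change of 0.06 (adjusted p = 0.378), which passed in TPM (0.41, adjusted p = 0.00229, limma).

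Set beside each other, the pump genes had a median change of 0.95 and the nutrient sensing genes 0.32, a gap of 0.64. A common scaling of a library cancels in this gap, and it was 0.64 in TPM also. It is a description of chosen genes without a test. In each library, the median log2 deviation of the pump genes from the mean of the 9 libraries was 0.26 to 0.32 in BME day 5 and -0.60 to -0.58 on BME + COL1 day 5. The same measure for the nutrient sensing genes was 0.04 to 0.11 and -0.31 to -0.20. Both classes lay above their mean in every BME library and under it in every BME + COL1 library, with a wider span for the pump.

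**Figure D3:**
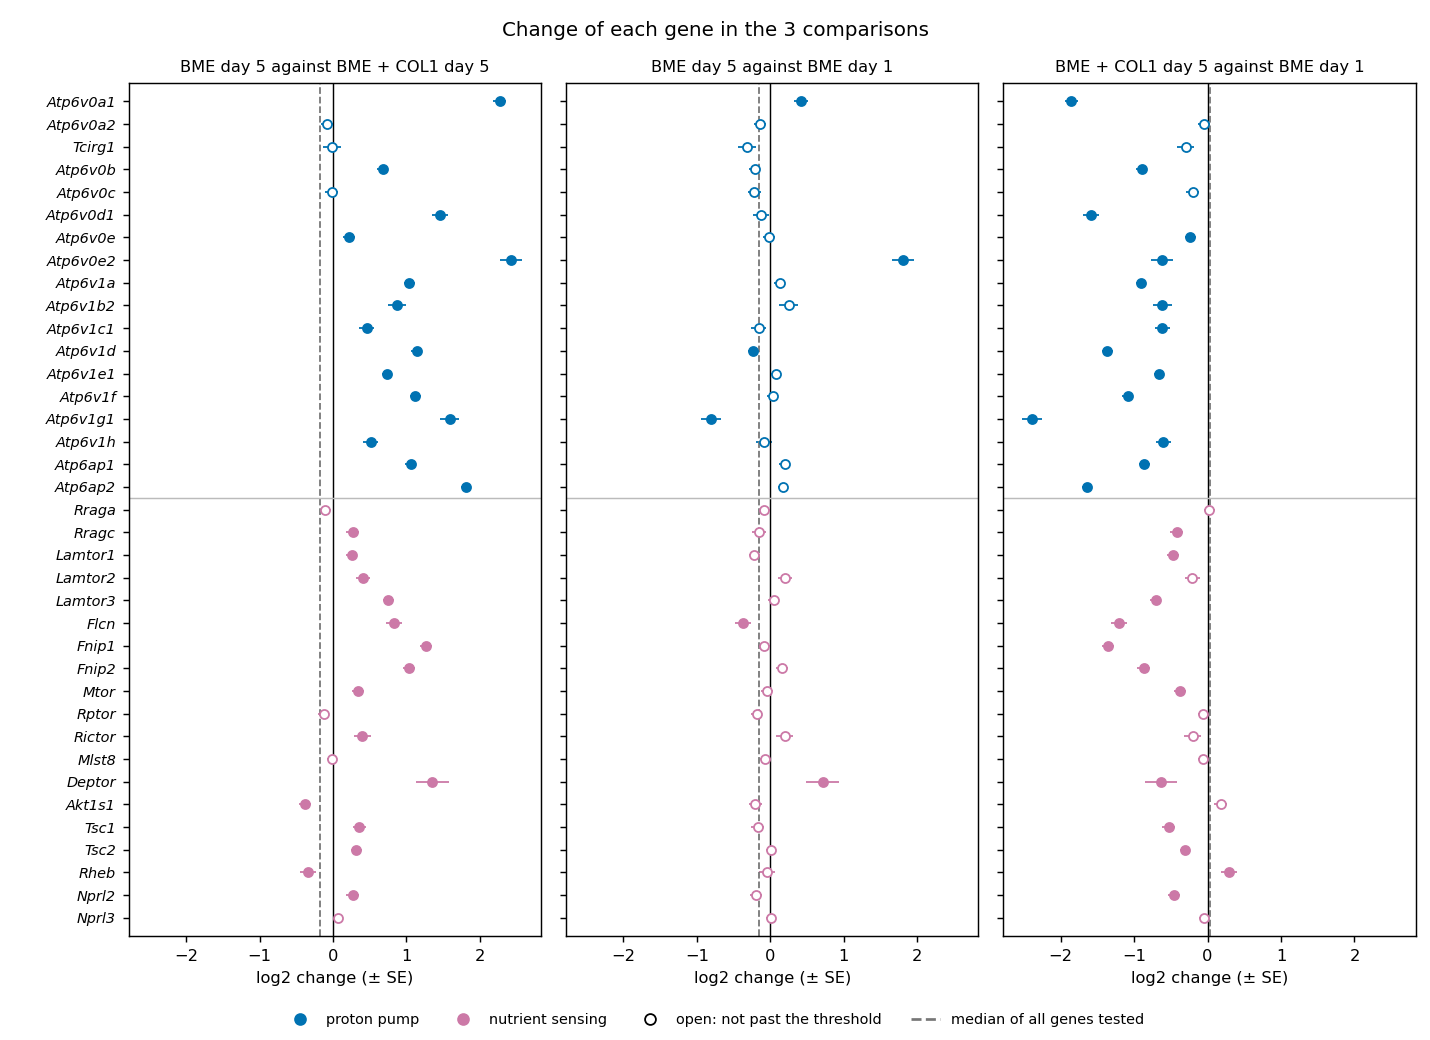
Log2 change (± SE) of the 37 tested genes in the 3 comparisons, pump genes above the grey line and nutrient sensing genes under it. Filled points passed the adjusted threshold, open points did not, and the dashed line is the median of all genes tested. On BME day 5 against BME + COL1 day 5, 15 of 18 pump genes are filled to the right of 0.

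**Figure D4:**
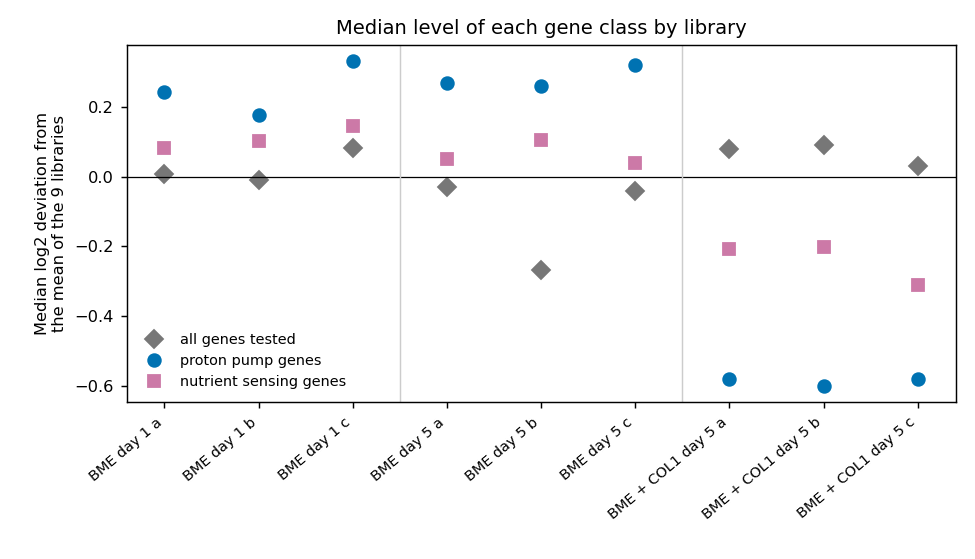
Median log2 deviation of each gene class from its mean over the 9 libraries, by library. The pump genes (circles) lie between -0.60 and -0.58 on BME + COL1 day 5 and between 0.18 and 0.33 in the BME libraries, while the median of all genes (diamonds) is lowest in BME day 5 replicate b.

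Some subunits exist in forms that can replace each other, and their shares of the family's summed FPKM differed between the matrices. Of the 3 a subunit genes, Atp6v0a1 made up 57.8%, 61.3% and 55.8% of the family in BME day 5 and 22.3%, 22.6% and 20.7% on BME + COL1 day 5. Neither of the other forms passed the test in FPKM. Atp6v0a2 (chr5:125079648-125202517), often found in the Golgi and early endosomes, was at 20.04, 19.2 and 18.1 FPKM in BME day 5 and 19.98, 21.1 and 19.7 FPKM on BME + COL1 day 5. Tcirg1 (chr19:3896050-3907133), the a3 form known from the bone-resorbing membrane of osteoclasts, was at 24.2, 19.5 and 27.5 FPKM and at 24.1, 23.3 and 23.7 FPKM. For both, the groups overlapped, with adjusted p of 0.367 and 0.916 in FPKM (limma), and in TPM both were higher on BME day 5 as given above. The shares do not depend on the scale of a library: Tcirg1 was the largest form on BME + COL1 day 5, at 42.1% ± 1.34 (SD, n = 3), and Atp6v0a1 the largest in BME day 5, at 58.3% ± 2.77. The family sum was 103 ± 2.48 FPKM in BME day 5 and 56.3 ± 1.34 FPKM on BME + COL1 day 5. The 4 Atp6v0a1 transcripts kept a similar order, and the leading transcript, of 3988 nt, held 64.1% of the gene in BME day 5 and 60.1% on BME + COL1 day 5.

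**Figure D5:**
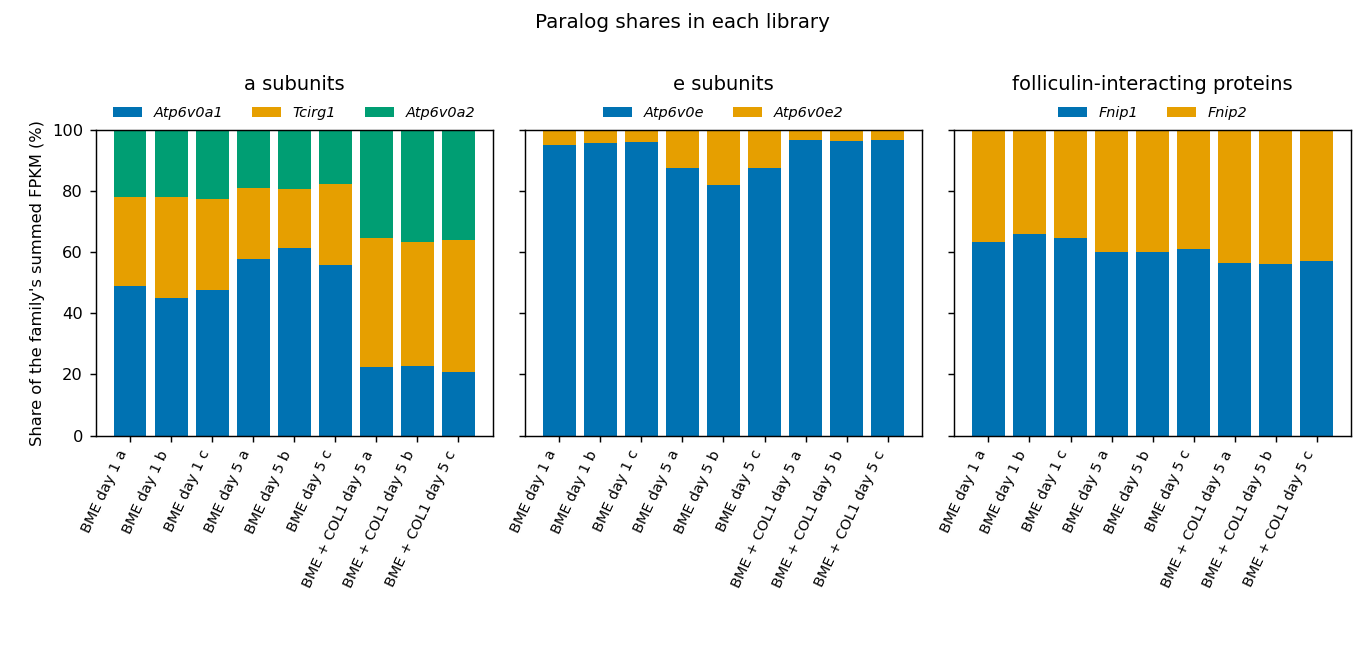
Share (%) of each gene in the summed FPKM of its family, by library, for the a subunits, the e subunits and the folliculin-interacting proteins. Atp6v0a1 takes 55.8% to 61.3% in BME day 5 and 20.7% to 22.6% on BME + COL1 day 5, and Atp6v0e2 takes its highest shares in BME day 5.

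In the e, d and RagC and RagD families the rarer form differed most. Atp6v0e2 made up 14.3% ± 3.33 of the e subunits in BME day 5 and 3.36% ± 0.261 on BME + COL1 day 5 (SD, n = 3). Atp6v0d2 (chr4:19803985-19849713), a form of the d subunit typical of osteoclasts, was listed at 0.173, 0.192 and 0.228 FPKM in BME day 5, at 0.0404, 0 and 0.00806 FPKM in BME day 1 and at 0 in the 3 BME + COL1 libraries. Its highest share of the d subunits was 0.239%. No fold is given against a group at 0, since a fitted change there rests on the pseudocount of 0.1 FPKM. Rragd (chr4:33069973-33109155), which encodes RagD, was at 1.34, 1.49 and 1.54 FPKM in BME day 5 and at 0.0414, 0.0598 and 0.0465 FPKM on BME + COL1 day 5. Its mean over the 9 libraries was under the filter of 1 FPKM. Fitted without that filter, the change was 3.38 (adjusted p = 4.25e-06), in a fit of 18136 genes of which 25.3% were higher. RagD was 4.10% of RagC and RagD in BME day 5 and 0.173% on BME + COL1 day 5. Rragb (chrX:149574501-149606486) was listed at 0 in all 9 libraries. RagA and RagB are close in sequence, and how reads were divided between their genes was not tested. Fnip2 made up 39.5% ± 0.538 of the FNIP pair in BME day 5 and 43.4% ± 0.445 on BME + COL1 day 5, and the libraries of the 2 groups did not overlap.

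Promoter sequences are shown for 7 of the genes because many of these genes moved together and because TFEB, TFE3 and MITF, which drive lysosomal genes, are known to bind an E-box of the letters CACGTG, as MYC and USF factors also do. The RefSeq windows (GRCm38.p6, from 250 bases before to 50 after the start of transcription) covered 32 of the 40 genes. CACGTG, which reads the same on both strands, lay in the windows of 9 of the 32 (28.1%), against 8.09% of the 27025 genes with a window and 7.15% of the 32851 windows. The longer form TCACGTG, searched on both strands and overlapping CACGTG by construction, lay in the same 9, against 4.29% of genes. The genes were Atp6v0b, Atp6v0d1, Atp6v0e and Atp6v1a of 13 pump genes with a window, and Fnip1, Lamtor1, Rheb, Rragb and Rragc of 19 nutrient sensing genes. Of the 8 that were tested, 7 were higher on BME day 5 and Rheb was lower in FPKM, which it was not in TPM (adjusted p = 0.991, limma). Of all 37 tested genes, which include these 8, 28 were higher, and of all genes 30.3% were. The count of 7 of 8 lies near 28 of 37 and does not set the genes with a match apart. A match is a description of the letters and does not show binding. Each stretch below runs from 150 bases before to 20 after the start, 5′ to 3′ on the strand of the gene, and the capitals mark CACGTG. In GRCm38.p6 they lie at chr4:117887310-117887479 on the reverse strand for Atp6v0b, chr8:105566045-105566214 on the reverse strand for Atp6v0d1, chr16:44139240-44139409 on the reverse strand for Atp6v1a, chr11:54438029-54438198 on the forward strand for Fnip1, chr7:101905687-101905856 on the forward strand for Lamtor1, chr5:24842342-24842511 on the reverse strand for Rheb and chr4:123917283-123917452 on the forward strand for Rragc.
Atp6v0b: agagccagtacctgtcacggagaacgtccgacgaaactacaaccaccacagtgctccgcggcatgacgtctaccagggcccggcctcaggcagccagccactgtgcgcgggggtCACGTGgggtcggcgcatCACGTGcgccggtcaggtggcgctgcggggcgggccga
Atp6v0d1: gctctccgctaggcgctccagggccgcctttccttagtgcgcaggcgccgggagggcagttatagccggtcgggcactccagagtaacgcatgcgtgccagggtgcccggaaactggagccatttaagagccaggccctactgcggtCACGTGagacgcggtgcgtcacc
Atp6v1a: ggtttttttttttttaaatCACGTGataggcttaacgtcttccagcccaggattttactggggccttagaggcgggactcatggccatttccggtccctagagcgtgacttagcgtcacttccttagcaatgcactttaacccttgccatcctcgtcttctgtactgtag
Fnip1: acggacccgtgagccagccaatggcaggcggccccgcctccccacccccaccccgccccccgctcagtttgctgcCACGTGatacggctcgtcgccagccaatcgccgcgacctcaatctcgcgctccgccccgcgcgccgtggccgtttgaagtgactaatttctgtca
Lamtor1: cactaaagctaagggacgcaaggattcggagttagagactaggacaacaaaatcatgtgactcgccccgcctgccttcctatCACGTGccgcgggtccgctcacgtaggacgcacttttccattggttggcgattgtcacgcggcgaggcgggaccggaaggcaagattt
Rheb: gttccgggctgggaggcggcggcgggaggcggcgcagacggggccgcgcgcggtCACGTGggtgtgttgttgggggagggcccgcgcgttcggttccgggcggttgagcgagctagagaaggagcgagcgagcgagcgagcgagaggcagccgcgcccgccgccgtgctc
Rragc: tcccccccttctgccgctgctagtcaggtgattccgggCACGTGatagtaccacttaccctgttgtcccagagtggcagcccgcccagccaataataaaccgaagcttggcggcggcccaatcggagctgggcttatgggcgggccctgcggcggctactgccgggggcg

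The first base of the match lay 36 and 18 bases before the start in Atp6v0b, 3 before it in Atp6v0d1, 131 in Atp6v1a, 75 in Fnip1, 68 in Lamtor1, 96 in Rheb and 112 in Rragc. In Atp6v0e, not printed, it lay at base 4 after the start. The 3 pump genes with the largest rises, Atp6v0e2, Atp6v0a1 and Atp6ap2, had a window without these letters, and Atp6v1g1 and Deptor had no window in the table.

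Genes of the same pathway that were not in the group were divided. Of 68 found in the files, 58 were tested between the matrices at day 5, of which 22 were higher and 23 lower on BME day 5, with a median change of -0.01, beside 30.3% higher and 45.3% lower among all genes. In TPM, 33 were higher and 13 lower, with a median of 0.33, beside 46.3% and 31.7% of all genes. The counts of the single lists rest on few genes, are to be read against these shares and single out no list. All 4 tested genes of the Ragulator and lysosomal amino acid list were higher, led by the lysosomal amino acid transporter Slc36a1 at 1.61 (adjusted p = 1.88e-07). Of 10 pump assembly factors 4 were higher, led by Wdr7 (1.76) and Rogdi (1.08), both of the complex that docks V1 onto V0, and 3 were lower, led by Ncoa7 (-0.69), while in TPM 7 were higher and 1 lower. A further pump subunit, Atp6v1c2, did not pass (0.02, adjusted p = 0.885; in TPM 0.36, adjusted p = 0.0285), and 6 others were below the filter.

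Of the cytosolic nutrient sensors, 4 of 6 were higher and 1 was lower, where 30.3% and 45.3% of all genes were. Castor2, of the CASTOR arginine sensor family and listed under its older name Gatsl2, rose by 1.82 (adjusted p = 2.23e-06), and Sesn3, of the sestrin family, rose by 1.07 (adjusted p = 2.53e-06), while the leucyl-tRNA synthetase Lars fell by 0.42 on the log2 scale (adjusted p = 0.0132), which did not pass in TPM (adjusted p = 0.434). The other GATOR and KICSTOR genes split, with 3 of 10 higher, led by Wdr59 (0.76), and 5 lower (4 and 3 in TPM). The lower ones were led by Sec13 (-0.91) and Seh1l (-0.87), GATOR2 subunits that also serve the nuclear pore. A further list held other genes of TSC and Rheb and of energy and growth factor inputs. Of its 14 tested genes 5 were higher, led by the mTORC1 inhibitors Ddit4l (1.51) and Ddit4 (1.00), and 6 were lower, led by Akt1 (-0.76). These shares were near those of all genes, while in TPM 7 were higher and 2 lower.

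Of 8 tested genes, for mTORC1 substrates and the S6 kinase target Rps6, 5 were lower on BME day 5 and 2 higher (5 and 3 in TPM). Among all genes 45.3% were lower and 30.3% higher (31.7% and 46.3% in TPM). Eif4ebp2, a repressor of cap-dependent translation, fell by 1.37 and Larp1, which binds mRNAs of the translation machinery, fell by 1.26 on the log2 scale, while Lpin1 rose by 1.47 and Maf1 by 0.68. Lpin1 differed widely within BME day 5, at 4.69, 9.19 and 4.52 FPKM. None of the 5 tested genes of mTORC2 and mTOR assembly was higher and 3 were lower, led by Prr5 (-1.43), a partner of Rictor, while in TPM 2 were higher and 2 lower. Transcript levels do not measure the activity of mTORC1.

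The comparison of day 5 with day 1 on BME asks what changes while the cells stay on the matrix that holds them dormant. Few of the genes moved. Of 18 pump genes 2 were higher at day 5 and 2 were lower, beside 9.09% and 22.2% of all genes tested, and the median change was -0.05. Of 19 nutrient sensing genes 1 was higher and 1 lower, with a median of -0.08, and the median of all genes was -0.15. The gap between the classes was 0.03, and 1 pump gene, Atp6v0e2, changed by more than 1 on the log2 scale, against 1.79% of all genes above that size.

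Atp6v0e2 made the largest move, from 5.90, 5.14 and 5.07 FPKM in BME day 1 to 15.9, 24.8 and 17.3 FPKM in BME day 5. The lowest day 5 library was well above the highest day 1 library, and the change was 1.81 ± 0.15 (SE, adjusted p = 0.000213). Its share of the e subunits went from 4.40% ± 0.502 to 14.3% ± 3.33. Atp6v0a1 was at 44.8, 40.6 and 49.3 FPKM in BME day 1, under all 3 day 5 libraries, and rose by 0.42 (adjusted p = 0.011, limma). Its share of the a subunits, which was not tested, was 47.1% ± 2.04 at day 1 and 58.3% ± 2.77 at day 5 (SD, n = 3).

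The falls were in V1. Atp6v1g1 was at 384, 379 and 470.1 FPKM in BME day 1, above every day 5 library, and fell by 0.81 on the log2 scale (adjusted p = 0.00359), while its group mean was still the highest of the pump genes. Atp6v1d (chr12:79943969-79962625), of the rotor stalk, was at 48.8, 46.2 and 47.4 FPKM in BME day 1 and 38.4, 39.3 and 43.8 FPKM in BME day 5. Its fall of 0.23 (adjusted p = 0.0422) was lost in TPM (-0.11, adjusted p = 0.34) and when any library other than BME day 5 replicate b or c was left out, with adjusted p of 0.0618 to 0.128 (limma).

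Of the nutrient sensing genes, Deptor was at 1.14, 0.877 and 1.22 FPKM in BME day 1 and rose by 0.72 (adjusted p = 0.0393). All 3 day 5 libraries lay above the day 1 libraries, but replicate c, at 1.29 FPKM, did so barely, and the call was lost when any library other than replicate c of BME day 1 or of BME day 5 was left out (adjusted p of 0.054 to 0.111). Flcn was at 18.1, 17.0 and 20.4 FPKM in BME day 1 and fell by 0.37 on the log2 scale (adjusted p = 0.0316). That call was lost when any library other than BME day 5 replicate b was left out (adjusted p of 0.052 to 0.092) and in TPM (adjusted p = 0.24, limma). Rragd went from 0.940, 0.764 and 0.538 FPKM in BME day 1 to the day 5 levels given above, without overlap, and in the fit with no filter its change was 0.90 (adjusted p = 0.0164), where 7.18% of all genes were higher.

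The comparison of BME + COL1 day 5 with BME day 1 changes the matrix and the day together, and these cannot be told apart in it. It shares its libraries with the comparisons above, so its values are given beside them and are no separate evidence. No pump gene was higher on BME + COL1 and 15 of 18 were lower, against 34.2% and 31.8% of all genes, with a median change of -0.76. Of 19 nutrient sensing genes 1 was higher and 11 were lower, with a median of -0.38, while the median of all genes was 0.03. A log2 change below -1 was found for 6 pump genes and 2 nutrient sensing genes, and for 9.73% of all genes. In TPM, 18 pump genes and 17 nutrient sensing genes were lower, against 46.4% of all genes.

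The largest fall was in Atp6v1g1, which fell by 2.39 on the log2 scale, from a mean of 411 ± 51.2 to 77.8 ± 1.72 FPKM (SD, n = 3; adjusted p = 1.02e-06, limma). Atp6v0a1 fell by 1.85 (adjusted p = 5.26e-07), from 44.9 ± 4.31 to 12.3 ± 0.856 FPKM, and its share of the a subunits from 47.1% to 21.9%. Among the nutrient sensing genes, Fnip1 fell by 1.36 (adjusted p = 1.55e-06) from 14.0, 15.1 and 13.7 FPKM in BME day 1, and Flcn fell by 1.20 (adjusted p = 1.56e-05). The groups of these 4 genes did not overlap. The gene that was higher, Rheb, was at 54.7, 53.8 and 57.0 FPKM in BME day 1 and at 66.5 to 68.4 FPKM on BME + COL1 day 5. Its change of 0.30 (adjusted p = 0.0373) was lost in TPM (0.07, adjusted p = 0.221) and without any of the 6 libraries compared (adjusted p of 0.0574 to 0.0961). In Rragd, the fit with no filter gave -2.48 (adjusted p = 3.01e-05), where 23.4% of all genes were lower (limma).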

How the data were processed

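RNA from 9 libraries (3 groups of 3 biological replicates) was sequenced as directional, bulk RNA-seq. The deposited values are Cufflinks FPKM per transcript, 1 table for each library, against builds mm9 and NCBIM37; the tools in the submitters' notes are Trimmomatic 0.30 and TopHat2 2.0.8, with CASAVA 1.8.4 and Partek. The version of Cufflinks and its strand setting are not given in the sources used here, so reads of overlapping genes cannot be told apart. FPKM were per the file headers another unit than counts, so no count test was run, and the authors' own test in Partek could not be repeated.

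FPKM of 30563 transcripts were summed by symbol, and the 10497 genes whose mean reached 1 FPKM entered the fit. log2(FPKM + 0.1) was fitted with limma 3.58.1 (R 4.3.3) with an intensity trend and 3 group means (6 residual degrees of freedom). Tests were two-sided, and p-values were adjusted over all genes tested. The fit was tested on simulated data. The pseudocount understates changes of rare genes such as Rragd.

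The genes, the lists of other pathway genes and markers, and the tests were chosen with earlier results of these data known. Values in each library are given for the 3 largest rises and falls of each class between the matrices at day 5, the 2 largest in the other comparisons, genes under the filter and paralog families. Of the other lists, up to 2 rises and 2 falls are named. Of the pathway genes looked for, Tldc1, Tldc2 and Bmt2 were not found, and 4 genes were matched by older names. Promoters are from RefSeq (GRCm38.p6) and were matched by symbol, and their coordinates are not those of mm9. Proteins were not used here.

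Replicate letters did not pair the samples (correlations of deviations between same-letter libraries from -0.23 to 0.096). Alternatives were a pseudocount of 1 FPKM, no filter, TPM, median-ratio scaling, no genes under 300 nt, the most abundant transcript, the 6 libraries compared, no trend, a replicate block and leaving out each library.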

Additional observations from a re-analysis of the deposited data

How the results depend on the processing

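Between the matrices at day 5, the counts of higher and lower genes stayed within 1.5 times the reported count and the gap between the classes within 1 SD of its value per library (0.0631) under every alternative, except that the 2 lower nutrient sensing genes became 0 in TPM and 0 without genes under 300 nt, and the gap of 0.64 was 0.71 with no filter, since Rragd and Atp6v0d2 then enter. Of all genes, 4756 were lower in the report, 3327 in TPM and 3214 of 10417 without genes under 300 nt. Leaving out each library gave 14 to 15 pump and 11 to 13 nutrient sensing genes higher and a gap of 0.59 to 0.67. In those fits 2916 to 3609 of all genes were higher. Among genes called in the report or under the alternative, signs turned in TPM for Atp6v0a2 (0.26), Tcirg1 (0.33), Atp6v0c (0.33), Rraga (0.24) and Mlst8 (0.33), and without genes under 300 nt for Atp6v0a2 (0.28), Tcirg1 (0.35), Atp6v0c (0.35), Rraga (0.26), Mlst8 (0.35), Rptor (0.24) and Rheb (0.0224). Rptor turned in TPM without a call (0.22), and other signs that turned without a call are not listed. Flcn lost its call with the most abundant transcript (0.27, adjusted p = 0.0506, limma). Both settings raise BME day 5 against BME + COL1 day 5 as a whole.

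Between the days on BME the few calls were not stable, and those among all genes moved too. Of all 10497 genes tested, 954 were higher in the report, 1534 in TPM, 1768 with median-ratio scaling and 452 in the 6 libraries. Without genes under 300 nt 1989 of 10417 were higher, and with the most abundant transcript 867 of 10416. When a library was left out, 533 to 1267 of all genes were higher. Pump genes higher, 2 in the report, were 4 in TPM, 5 with median-ratio scaling, 6 without genes under 300 nt and 2 to 4 when a library was left out. Pump genes lower, 2 in the report, were 1 in TPM, with median-ratio scaling, without genes under 300 nt and in the 6 libraries, 3 with no filter and with no trend, where Atp6v0b also passed, and 1 to 3 when a library was left out. Of all genes, 2327 were lower in the report, 2236 in TPM and 2127 with median-ratio scaling. Without genes under 300 nt 1640 of 10417 were lower, and in the 6 libraries 618. With no filter 1995 of 18136 were lower, with no trend 2197, and 1018 to 3248 when a library was left out. Nutrient sensing genes higher, 1 in the report, were 3 in TPM, 3 with median-ratio scaling, 4 without genes under 300 nt, 0 with the most abundant transcript, 0 in the 6 libraries and 0 to 2 when a library was left out. With the most abundant transcript, Deptor, the gene called in the report, lay under the filter and was not tested. Nutrient sensing genes lower, 1 in the report, were 2 with no filter, 0 in TPM, with median-ratio scaling, without genes under 300 nt and in the 6 libraries, and 0 to 2 when a library was left out. The gap of 0.03 ran from -0.0221 (without BME day 1 replicate b) to 0.0581.

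Between BME + COL1 day 5 and BME day 1, nutrient sensing genes higher (1) were 0 with no filter, in TPM and without genes under 300 nt, 2 with median-ratio scaling and in the 6 libraries, and 0 to 2 when a library was left out. Those lower (11) were 17 in TPM and 17 without genes under 300 nt, and the gap of -0.38 was -0.26 with no filter. Of all genes, 3588 were higher in the report, 2638 in TPM, 4151 with median-ratio scaling and 4236 in the 6 libraries. With no filter 3779 of 18136 were higher, and without genes under 300 nt 2705 of 10417. Of all genes, 3343 were lower in the report, 4870 in TPM and 4822 without genes under 300 nt. When a library was left out there were 14 to 17 pump and 10 to 11 nutrient sensing genes lower and a gap of -0.43 to -0.33. In those fits 2925 to 3820 of all genes were lower and 3034 to 4262 were higher. Rraga turned to -0.20 in TPM and -0.19 without genes under 300 nt. The replicate block, whose letters did not pair the samples, left 1 pump gene lower and 0 nutrient sensing genes higher between the days, and took the call of Deptor between BME + COL1 day 5 and BME day 1 (adjusted p = 0.0514, limma). It changed no other call. Of all genes, the replicate block left 858 higher and 2061 lower between the days. The cause of these differences was not tested except where given.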
